A study of Mus musculus with 2 samples.

Results

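The 35 autophagy genes described here run from the kinases that start autophagosome formation to proteins of the lysosomal membrane, and were chosen by gene symbol. Every noncontrol probe that carries such a symbol on 2 mouse arrays was taken. All 35 had a probe, with 52 probes in all among the 55681 noncontrol probes of each array. CD4 T cells were sorted from cultures of spleen cells of female OVA-TCR-Tg mice, whose T cell receptor transgene recognises ovalbumin (OVA), and RNA was taken 24 h after OVA (0.1 mg/mL) was added. In the co-culture, spleen cells first stimulated with TSST-1, a bacterial superantigen (0.1 μg/mL), and called anergic in the labels, were mixed with an equal number of naive spleen cells and OVA. The naive-only culture held naive spleen cells with OVA at the same total density, 2500000 cells/mL. Whether the sort left out the pre-stimulated cells is not in the labels, which also do not give the promoter of the transgene or the age of the mice. With 1 single-colour array in each group, the differences below have no replicates behind them and were not tested.

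Autophagy delivers cytoplasm and organelles to the lysosome. The ULK kinase complex starts the process, a lipid kinase complex around Beclin 1 marks the forming membrane, and 2 ubiquitin-like conjugation systems attach LC3 and GABARAP proteins to it, on which cargo receptors such as p62 dock. In T cells the pathway is known for clearing mitochondria and endoplasmic reticulum and for supporting survival and memory. Its activity is set largely by phosphorylation and by protein turnover, which mRNA levels do not measure.

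Most autophagy genes differed little between the co-culture and the naive-only array. Of the 35 genes, 32 were well above background on both arrays, 1 (Wipi1) in the co-culture alone, against 3.01% of all 24105 named genes, and 2 (Atg4a and Optn) on neither, against 39.9%. No autophagy gene was above background on the naive-only array alone, against 3.42%. Among the 32, 1 was at least 2-fold higher in the co-culture (Atg16l2), against 8.28% of all 12928 named genes measured on both arrays. Another 1 was at least 2-fold lower (Lamp2), against 5.18% of all genes measured. A single gene is 3.12% of the 32, so neither count stands above the background. The median log2 difference (co-culture minus naive-only) was 0.01 for the 32 genes, with quartiles at -0.22 and 0.33, and -0.04 for all genes measured, with quartiles at -0.37 and 0.34. Differences under 1.5-fold made up 78.1% of the list, 25 of 32, and 70.0% of all genes measured.

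At 1.5-fold, 5 of the 32 genes were higher, against 15.8% of all genes measured. They were Atg16l2, Ulk2, Tfeb, Gabarapl1 and Nbr1. At that fold 2 were lower, Lamp2 and Atg7, against 14.2% of all genes measured. The scanner software gives each intensity a modelled error, and those of the 2 arrays were combined into a technical error of the difference. It was 0.20 for the median gene (log2) and leaves out variation between cultures. For bright probes it stays near 0.20, so a limit of 2 errors acts there much as a fixed cut. By that measure 9 of the 32 genes differed by more than 2 errors, or 28.1%, against 42.1% of all genes measured. Of these 9, 7 were higher, or 21.9% of the 32, against 20.7% of all genes measured, and 2 were lower, or 6.25%, against 21.4%.

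**Figure D1:**
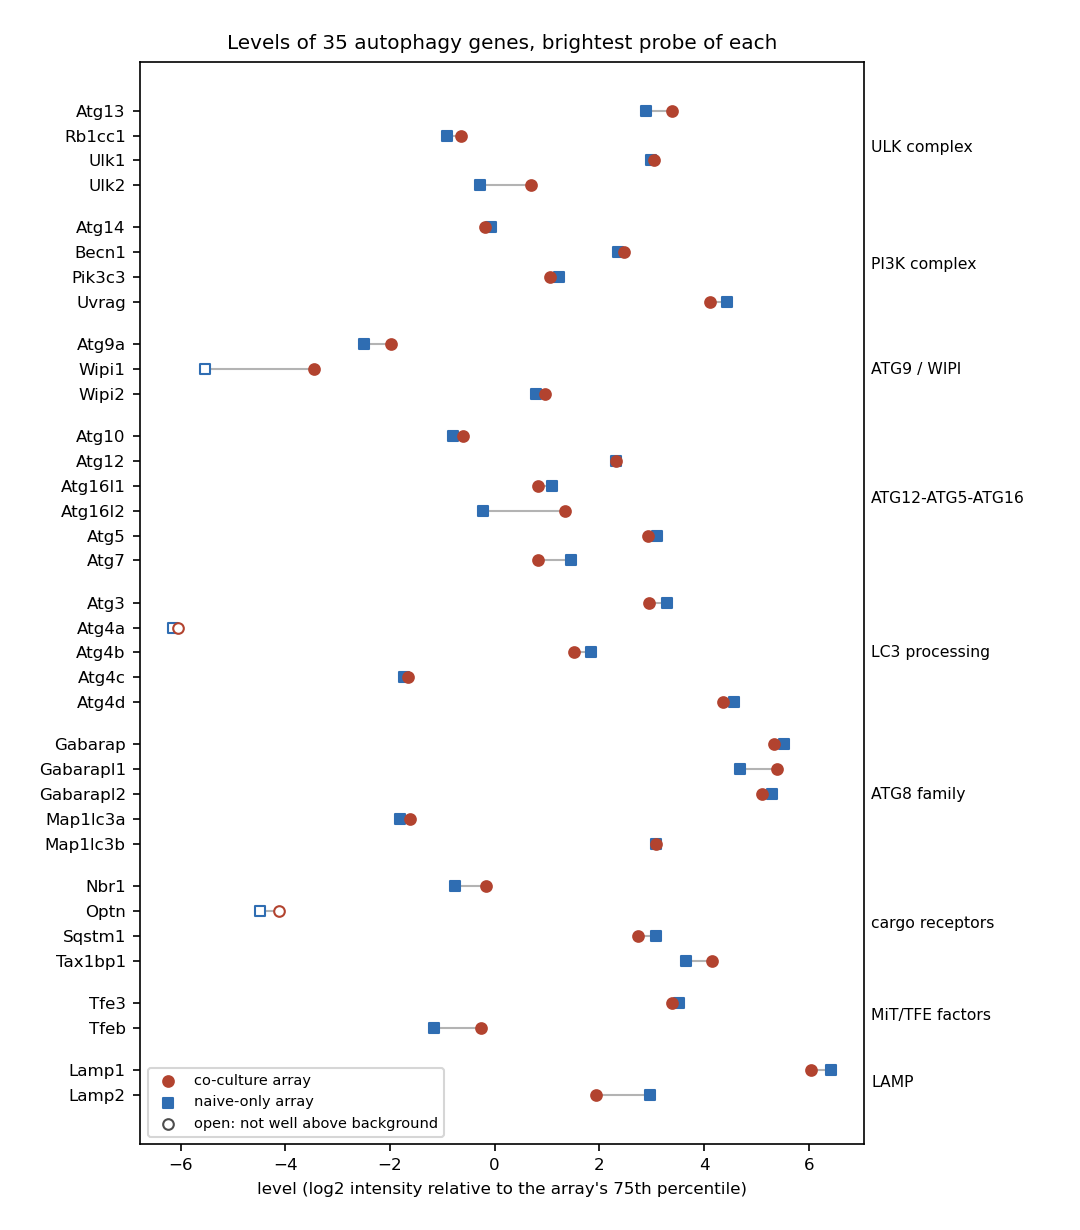
Level of each of the 35 autophagy genes by its brightest probe (log2 intensity relative to the array's 75th percentile), with circles for the co-culture array and squares for the naive-only array, grouped by role. Open symbols mark probes not well above background, and positions are comparable within a gene only. The widest gaps among genes measured on both arrays are those of Atg16l2 (1.57) and Lamp2 (-1.03).

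Markers of other spleen cells also differed between the arrays. All 14 B cell genes were lower on the co-culture array or above background in the naive-only sample alone, with 11 measured on both, each at least 2-fold lower, and a summed intensity of 3012 on the co-culture against 13298 on the naive-only array. Class II presentation genes summed to 15938 against 64431. Of the 8 measured, 5 were at least 2-fold lower, and the differences ran from -4.00 to 0.06. Of 15 measured macrophage, monocyte and dendritic cell genes, 14 had negative differences and 5 were at least 2-fold lower, with a median of -0.49 and Fscn1 lowest at -4.56. Their summed intensity, 63134 against 74777, came mostly from Siglech (45263 against 48922) and Cst3 (12386 against 17308). Of 5 measured CD8 and natural killer cell genes, 4 had negative differences and 2 were at least 2-fold lower. The list summed to 662 against 1889. Eomes had 58.3 against 828, while Cd8a was at 0.52 and Cd8b1 at -0.56. In that list 2 genes were above background in the naive-only sample alone, and Klrd1 in the co-culture alone (85.2 against 10.8). The 10 defining genes of CD4 T cells were all measured, with differences from -0.92 to 0.90, and summed to 397984 against 353919. The part of these cells in the differences below was not tested. Fewer cells of a type and less RNA per cell cannot be told apart in sorted bulk RNA.

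In the ULK complex, which receives signals from mTOR and AMPK, none of the 4 genes passed 2-fold. Ulk2, one of the 2 kinases of the complex, had an intensity of 490 on the co-culture and 248 on the naive-only array, a log2 difference of 0.97 ± 0.21 (technical error). Its second probe gave 132 and 75.6, a difference of 0.79 ± 0.23, so that both probes were higher on the co-culture array. Ulk2 lay just inside 2-fold and passed it (1.02) where the arrays were scaled on probes above background on both. Ulk1, the other kinase, had 2479 on the co-culture and 2362 on the naive-only array (0.06 ± 0.20). Atg13, the regulatory subunit that links the kinases to the complex, had 3168 and 2211 (0.51 ± 0.20). Rb1cc1, which encodes the scaffold FIP200, had a brighter probe at 0.27 ± 0.21 and another at -0.25 ± 0.21, so its direction was not settled.

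In the lipid kinase complex, no gene reached 1.5-fold. Becn1, which encodes Beclin 1, had 1679 on the co-culture and 1543 on the naive-only array (0.11 ± 0.20). Pik3c3, the catalytic subunit gene, was at -0.17 and -0.11 on its 2 probes. Atg14, whose product directs the complex to the forming autophagosome, was at -0.12, and Uvrag, whose product directs it to endosomes, was at -0.34 ± 0.20.

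Among genes that supply membrane or bind the lipid made there, Atg9a, a lipid scramblase carried on vesicles, had 76.2 on the co-culture and 53.3 on the naive-only array (0.51 ± 0.26, or 0.24 with normexp background correction). Wipi2, which recruits the conjugation machinery, was at 0.17 and 0.30 on its 2 probes. Wipi1, its paralog, was well above background in the co-culture alone, by 1 of its 3 probes, with 27.7 on the co-culture and 6.49 on the naive-only array. Set against the lowest naive-only level called well above background, this is at least 1.49-fold higher. The other Wipi1 probes, at 14.2 and 5.81 for one and 4.33 and 3.91 for the other, were dim on both arrays.

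The conjugation genes held the largest difference of the list. Atg16l2, a paralog of the gene for the ATG16L1 scaffold that places LC3 on membranes, had 768 on the co-culture and 257 on the naive-only array, a log2 difference of 1.57 ± 0.21 (2.97-fold higher). Its second probe had 258 and 87.5, a difference of 1.55 ± 0.22, so that both probes gave nearly the same value. Under 9 other ways of processing that keep the gene, the difference ran from 1.40 to 1.61. Several of these leave the value as it was or shift all genes alike, so they could hardly change it. The second probe is shown because it crosses a splice junction, its 60 bases covering 231 bases of genome at chr7:108438916-108439146 (mm9, minus strand), and so reports spliced RNA of this gene. The brighter probe lies at chr7:108438181-108438240. No exon or UTR annotation for mm9 was used.
Atg16l2 probe: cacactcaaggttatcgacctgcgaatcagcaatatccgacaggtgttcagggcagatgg

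The Atg16l2 value stood at percentile 96.2 of all measured genes. Atg16l1 itself had 537 on the co-culture and 644 on the naive-only array (-0.27 ± 0.20), and the gap between the paralogs' differences was 1.84 ± 0.29. Atg7, the enzyme that activates both ubiquitin-like proteins, had 538 on the co-culture and 822 on the naive-only array (-0.62 ± 0.20), but its other probe gave -0.20 ± 0.21. Atg5, which is joined to ATG12, was at -0.17. Atg12 was at 0.01 and -0.25 on its 2 probes. Atg10, the enzyme that joins them, was at 0.19 ± 0.21 by its brighter probe and -0.67 ± 0.26 by the other, the widest split in sign among the autophagy genes. Of the 12 autophagy genes with at least 2 measured probes, 3 had probes of opposite sign, or 25%, against 23% of 3556 such genes on the array.

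**Figure D2:**
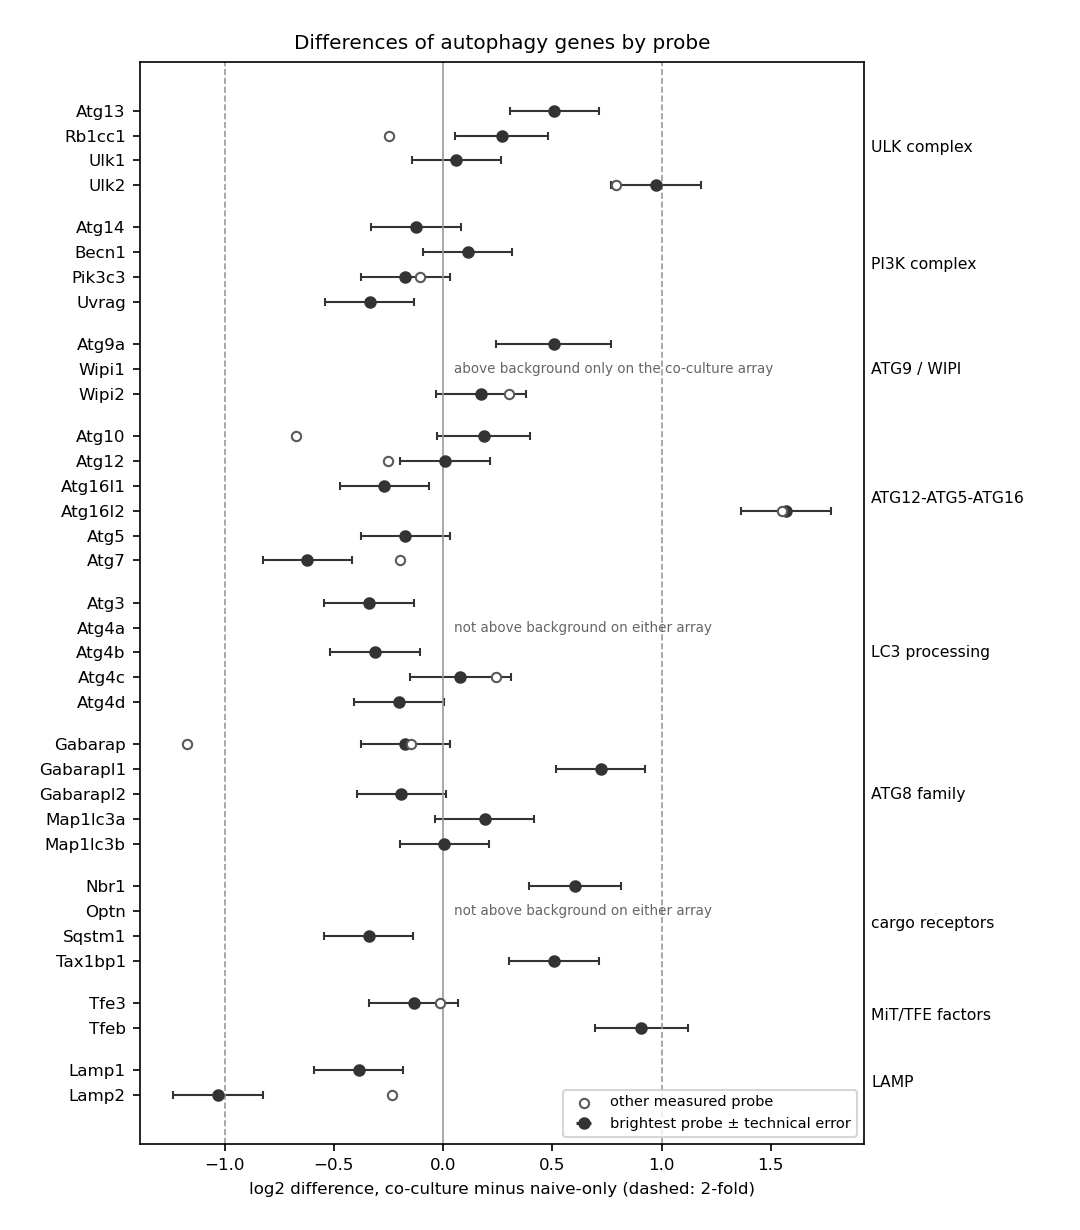
Log2 difference of each gene, co-culture minus naive-only, with the brightest probe as a filled point (bar, ± technical error) and other measured probes as open points, grouped by role. Atg16l2 lies beyond the 2-fold line with both probes, whereas Lamp2 and Gabarap have 1 probe beyond it and at least 1 near 0.

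None of the 4 measured LC3 processing genes reached 1.5-fold or 2 technical errors. Atg3, the enzyme that attaches LC3 to lipid, had 2323 on the co-culture and 2920 on the naive-only array (-0.34 ± 0.20). The proteases that trim LC3 stood at -0.31 (Atg4b), 0.08 (Atg4c) and -0.20 (Atg4d). Atg4a stayed near background, at 4.55 and 4.24.

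Of the 5 LC3 and GABARAP genes, Gabarapl1 stood apart. It had 12746 on the co-culture and 7686 on the naive-only array, a log2 difference of 0.72 ± 0.20 (1.65-fold higher) on its single probe. The other 4 lay within 1 technical error of 0 by their brightest probes. Gabarapl2 had 10418 and 11827 (-0.19 ± 0.20). Gabarap had 12258 and 13729 (-0.17 ± 0.20), with a second probe at -0.15. Another, much dimmer Gabarap probe had 113 and 253 (-1.17 ± 0.22). The array annotation ties it to an Ensembl transcript that is also listed for the other Gabarap probes. Map1lc3b, which encodes the standard marker of autophagosomes, was printed in 10 spots. Those spots ran from 2422 to 2680 (median 2548) on the co-culture and from 2344 to 2619 (median 2542) on the naive-only array, so the arrays overlapped and the difference was 0.01 ± 0.20. The SD between its spots was 0.036 on the co-culture and 0.057 on the naive-only array (log2), which measures spot noise only. Map1lc3a was at 0.19 ± 0.23.

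Cargo receptors split by gene. Nbr1, a receptor for ubiquitinated cargo, had 269 on the co-culture and 176 on the naive-only array (0.60 ± 0.21, 1.52-fold higher). With normexp it was at 0.44, under 1.5-fold. Tax1bp1, another receptor and a regulator of NF-κB signalling, had 5373 and 3755 (0.51 ± 0.20). Sqstm1, which encodes p62, had 2012 and 2530 (-0.34 ± 0.20). A second Sqstm1 probe, was above background in the co-culture alone, at 24.1 and 16.9. Optn was not well above background, at 17.3 and 13.5.

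Of the transcription factors of the MiT/TFE family, which switch on lysosome and autophagy genes, Tfeb had 252 on the co-culture and 133 on the naive-only array (0.91 ± 0.21, or 0.67 with normexp). Its other probe was not above background on either array. Tfe3 had 3135 and 3421 (-0.14 ± 0.20), with its second probe at -0.01.

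The LAMP genes encode the main glycoproteins of the lysosomal membrane, and both were lower on the co-culture array. Lamp1 had 19862 on the co-culture and 25784 on the naive-only array (-0.39 ± 0.20). Lamp2 was the only autophagy gene at least 2-fold lower, and it depended on the probe. The brighter probe, annotated to transcript variant 2, had 1153 on the co-culture and 2341 on the naive-only array (-1.03 ± 0.20, 2.04-fold lower). The probe annotated to transcript variant 1 had 689 and 807 (-0.24 ± 0.20). The call was lost with the mean of both probes (-0.63), with normexp (-0.98) and with scaling on probes above background on both arrays (-0.99). With that scaling the list held 2 genes at least 2-fold higher and 0 lower, against 1 and 1 above.

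Related genes were then set against each other, since a difference between their differences does not depend on the percentile that scales the arrays. In 6 families with at least 2 measured genes there were 17 pairs, of which 7 differed by more than 2 technical errors. The ULK, ATG16, MiT/TFE and LAMP pairs were among them, with Ulk2 above Ulk1 by 0.91 ± 0.29 and Tfeb above Tfe3 by 1.04 ± 0.29. The LAMP pair (-0.65 ± 0.29) rests on the brighter Lamp2 probe, and the gap from Lamp1 was 0.15 ± 0.29 with the other probe and -0.25 ± 0.25 with the mean of both. The other 3 each held Gabarapl1, which exceeded Gabarapl2 by 0.91 ± 0.29, Gabarap by 0.89 ± 0.29 and Map1lc3b by 0.71 ± 0.29. None of the 3 ATG4 pairs did so. These errors are technical, so the pairs describe these arrays. The share over pairs of all measured genes was not computed, so 7 of 17 cannot be called high or low. Of single genes measured, 42.1% differed by more than 2 errors.

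**Figure D3:**
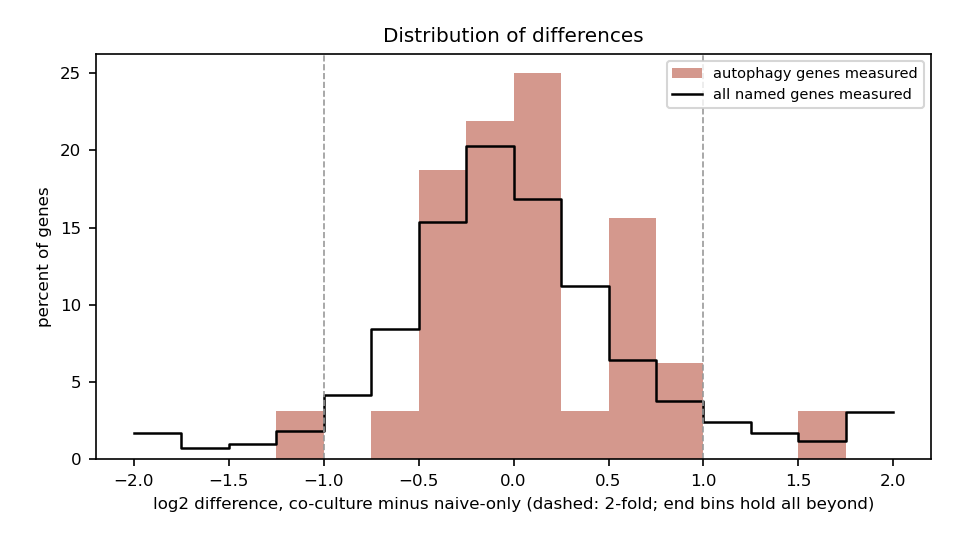
Percent of genes by log2 difference, co-culture minus naive-only, in bins of 0.25, for the 32 measured autophagy genes (bars) and all 12928 named genes measured (line). The autophagy genes lie mostly within 1.5-fold (78.1%, against 70.0% of all genes), with 1 gene past 2-fold on each side.

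Promoter windows, the 250 bases before the start, were taken from RefSeq (GRCm38.p6) and matched 29 of the 35 genes. Atg12, Atg16l1, Becn1, Map1lc3a, Pik3c3 and Rb1cc1 had none. The letters CACGTG, the core of the E-box bound by MiT/TFE factors, were found on either strand in 4 of the 29 genes (13.8%), against 6.86% of 27025 genes. The 4 were Lamp1, Atg7, Atg3 and Atg5, and their differences ran from -0.62 to -0.17, all negative. Among all 879 measured genes with these letters the median was -0.13, against -0.03 for 7920 without. By these counts measured genes carry the letters more often than all 27025 genes do. The share of 6.86% is therefore too low a base for a list of mostly measured genes. Among measured genes with a window, 4 autophagy genes held the letters and 22 did not, against 879 and 7920 of all. Neither TGTTTAC, bound by FOXO factors, nor TGATGNAA, found in ATF4 targets, was present in any of the 29, against 3.54% and 3.91% of all genes. With shares this small, an absence among 29 genes is near the background. The Lamp1 window, which holds CACGTG 4 times, and the Atg7 window are shown with these letters in capitals.
Lamp1, chr8:13158911-13159160, plus strand: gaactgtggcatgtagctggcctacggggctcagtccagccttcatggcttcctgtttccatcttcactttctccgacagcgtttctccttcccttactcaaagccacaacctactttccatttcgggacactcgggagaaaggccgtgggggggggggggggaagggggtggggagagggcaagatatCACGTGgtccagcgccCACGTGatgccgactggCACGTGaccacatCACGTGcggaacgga
Atg7, chr6:114670846-114671095, plus strand: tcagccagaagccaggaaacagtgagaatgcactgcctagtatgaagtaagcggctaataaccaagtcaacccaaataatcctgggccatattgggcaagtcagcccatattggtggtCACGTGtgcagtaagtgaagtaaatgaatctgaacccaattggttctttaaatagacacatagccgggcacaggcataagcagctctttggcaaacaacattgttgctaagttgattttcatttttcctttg

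The letters TGACGT, part of the cAMP response element TGACGTCA, were searched after the windows and the differences had been seen. On either strand they were in 7 of the 29 genes (24.1%), against 7.29% of all genes. The 6 measured among them, Atg16l2, Ulk2, Nbr1, Tax1bp1, Atg10 and Gabarapl2, ran from -0.19 to 1.57, with 5 positive. The 1029 measured genes with these letters had a median of -0.09, against -0.03 for 7770 without. Here too measured genes carry the letters more often than all genes, so 7.29% is too low a base for this list. Among measured genes with a window, 6 autophagy genes held the letters and 20 did not, against 1029 and 7770 of all. With letters searched after the differences were seen, no excess is read from these counts. Atg16l2 alone of the 29 held the full TGACGTCA, found in 1.77% of all genes. Its window and that of Ulk2 are shown with these letters in capitals, in each case near the start of the gene.
Atg16l2, chr7:101302089-101302338, minus strand: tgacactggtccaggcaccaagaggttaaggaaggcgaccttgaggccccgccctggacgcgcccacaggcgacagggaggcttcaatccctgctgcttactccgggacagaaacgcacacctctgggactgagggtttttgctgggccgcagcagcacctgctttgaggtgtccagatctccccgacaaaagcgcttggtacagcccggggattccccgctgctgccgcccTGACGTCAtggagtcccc
Ulk2, chr11:61855093-61855342, minus strand: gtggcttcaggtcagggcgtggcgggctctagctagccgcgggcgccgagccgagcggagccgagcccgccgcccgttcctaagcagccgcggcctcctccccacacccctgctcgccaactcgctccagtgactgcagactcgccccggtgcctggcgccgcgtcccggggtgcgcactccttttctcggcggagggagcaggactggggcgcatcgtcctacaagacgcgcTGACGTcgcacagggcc

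Beyond these genes, 109 other symbols of autophagy, the lysosome and their control were listed in 6 groups, some of them older and newer names of the same gene. Of these, 91 were measured on both arrays, 5 were above background in the naive-only sample alone, 2 on neither, and 11 had no probe under that name. At least 2-fold higher were 7 of the 91 (7.69%, against 8.28% of all genes measured) and 1 was at least 2-fold lower (1.1%, against 5.18%). The median was -0.03. Among 8 initiation and 7 expansion genes none passed 2-fold, which for lists this short is near the background. The nearest were Wdr45, a relative of the WIPI genes, at 0.86 ± 0.20 and Ulk3 at 0.73 ± 0.20, whose other probe gave -0.03.

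The genes past 2-fold were regulators, a mitophagy receptor, a crosslinking enzyme and lysosomal genes. Of 25 measured genes of kinase control and transcription, 4 were at least 2-fold higher (16%, against 8.28% of all genes measured). The list was chosen with earlier results of these data known, so this share only describes the genes picked. Trib3, a stress-induced pseudokinase, had 10571 on the co-culture and 1505 on the naive-only array (2.80 ± 0.20). The mTOR inhibitor genes Ddit4 and Sesn2 were at 2.12 ± 0.20 and 1.32 ± 0.20, and Ddit3, a stress-induced transcription factor gene, at 1.76 ± 0.20. The kinase gene Mtor was at 0.10 ± 0.20. Of 13 selective receptors and adaptors measured on both arrays, Bnip3, a mitophagy receptor, was the only one past 2-fold (7.69%, under the 8.28% of all genes). It had 23516 and 6113 (1.93 ± 0.20), and its 3 probes ran from 1.81 to 2.05. Its paralog Bnip3l was at 0.89 ± 0.20. Calcoco2 of the same list, above background in the naive-only sample alone and at least 5.21-fold lower, is not among the 13. Of 14 fusion genes, 1 was past 2-fold (7.14%, also under 8.28%). This was Tgm2, a transglutaminase, which had 26450 and 2986 (3.14 ± 0.20), and its 2 probes both gave 3.14. Of 25 lysosomal genes, 1 was at least 2-fold higher (4%, against 8.28% of all genes measured) and 1 lower (4%, against 5.18%). The lower one was Ctss, which encodes the protease cathepsin S, with 3521 and 7282 (-1.06 ± 0.20). The part of other spleen cells in this difference was not tested.

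**Figure D4:**
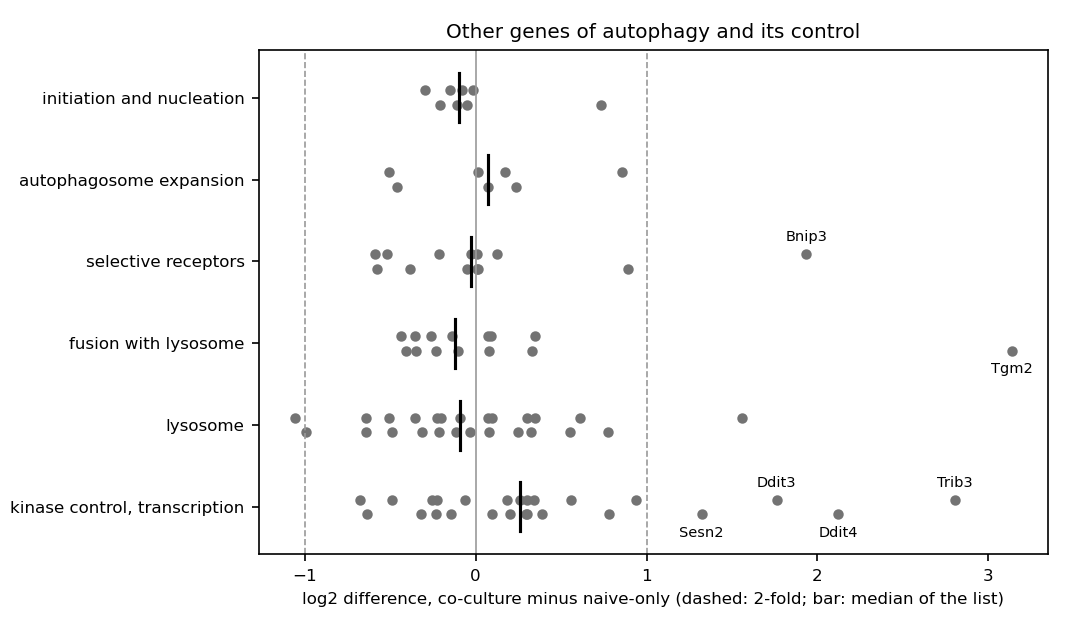
Log2 difference, co-culture minus naive-only, of the 91 measured genes of 6 further lists, 1 point per gene and list, with the list's median as a bar and genes past 2-fold named outside the lysosome list. Kinase control and transcription holds 4 of the 7 genes that were at least 2-fold higher, and its median was 0.26. That is 16% of its 25 genes, against 8.28% of all genes measured. The lists were chosen with earlier results of these data known.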

How the data were processed

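Labelled Cy3 cDNA, amplified from total RNA with the Ovation system per the labels' protocols, was measured on 1 single-colour Agilent array per group, and groups were taken from sample titles. Spots were read with Agilent Feature Extraction 10.7.1.1, per the file headers, which give each intensity as a background-subtracted linear value with a modelled error and place probes on mm9. Version 9.5.1.1 stands in the submitters' processing notes, and which one made the values is not settled. The deposited value table, which the authors normalized, holds linear intensity. Its sorted columns match within 0.0369%, both medians are 14.5, and no source used here gives its other steps.

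The value used was log2 of the processed intensity, with repeat spots averaged, from which the 75th percentile of noncontrol probes on that array was subtracted (301.3 for co-culture and 299.4 for naive-only). A gene was the symbol in the array file, represented by its brightest probe over both arrays, and was measured if the software called that probe well above background on both. Symbols that only repeated an accession or probe name were left out, which left 24105 genes. A call was a difference of at least 2-fold. Well above background were 45.1% of probes on the co-culture and 46.2% on the naive-only array. No spot of an autophagy gene was saturated or marked as an outlier. The number of arrays limits the precision.

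For a bound, the dimmer array's level was raised to its lowest level called well above background where it fell under it. Named genes were all 35 autophagy genes, and up to 4 genes past 2-fold per direction in each further list. A few others were chosen after their values were seen (Wdr45, Ulk3, Mtor, Bnip3l, and the markers Fscn1, Siglech, Cst3, Eomes, Cd8a, Cd8b1 and Klrd1). Some items are not reported here. The genes and lists were chosen with earlier results of these data known. The difference step was tested on simulated data made from the naive-only array. The added noise was smaller than the technical error here and the added changes were all past 2-fold. It therefore checks the calculation only, not how reliable the calls are. Updating symbols through the RefSeq table added 0 probes to the 35 genes. Tools were Python 3.11.15, numpy 2.4.6, pandas 2.3.3, matplotlib 3.10.9, R 4.3.3 and limma 3.58.1 (normexp, offset 50).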

Additional observations from a re-analysis of the deposited data

How the results depend on the processing

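The median of the autophagy genes ran from -0.17 with the stricter filter, which kept 21 genes and under which the median of all genes was -0.07, to 0.06 with no filter, against 0.01. That of the 91 further genes ran from -0.06 to 0.02. Among autophagy genes, at least 2-fold higher were 2 with scaling on probes above background on both arrays (Ulk2 joined) and 2 with no filter on dim probes (Wipi1 joined). There were 0 with the stricter filter, which left out Atg16l2, and 5 at 1.5-fold. At least 2-fold lower were 0 with that scaling, 0 with normexp, 0 with the mean of a gene's probes and 2 at 1.5-fold. Among the further genes, 14 were higher and 7 lower at 1.5-fold, 2 were lower with scaling on the median and 3 with no filter. With normexp, 776 of all genes were at least 2-fold higher and 439 lower, against 1070 and 670. The stricter filter gave 488 and 244 of 7782 genes, no filter 2254 and 1764 of 24105, and 1.5-fold 2040 and 1837 of 12928. Of 389 single-gene values recomputed, 8 moved by more than their technical error and none that was past 2-fold changed sign. Many of the 389 could hardly move. The filters and updated symbols left a kept gene's value as it was, and the other scalings and the marked spots shifted all genes alike. Quantile normalization and the deposited table gave nearly the same values. The count of 8 therefore says little about robustness. Among the smaller values, Atg10 was at -0.24 with the mean of its probes and Rb1cc1 at -0.17 with normexp, each with the sign turned. Probes near background carry the widest technical errors and limit what can be said of Wipi1, Atg4a and Optn. With the mean of a gene's probes, chosen after seeing the data, 8 of the 17 family pairs differed by more than 2 technical errors, against 7, and the LAMP pair was not among them. No paired analysis was possible because each group has 1 array.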

Other observations

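Of the further genes, 5 were well above background in the naive-only sample alone, against 3.42% of all 24105 named genes. They were Calcoco2, Rragd, Tsc2, Wdfy3 and Calcoco1. Calcoco2, whose human counterpart encodes the receptor NDP52 for bacteria and mitochondria, had an intensity of 9.99 on the co-culture and 105 on the naive-only array, at least 5.21-fold lower. Rragd, a GTPase gene of the mTOR pathway, had 22.1 and 39.0. Tsc2 had 25.4 and 35.1, Wdfy3 25.7 and 29.0, and Calcoco1 14.4 and 22.5. Their bounds were only 1.39-, 1.14- and 1.12-fold, so these calls lie near the background threshold.

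Among all measured genes with a promoter window, 14.8% of the 210 that hold TGATGNAA were at least 2-fold higher in the co-culture, against 8.08% of 8589 without. For TGTTTAC these were 13.7% of 226 genes, against 8.10% of 8573 without. No autophagy gene with a window held either.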
